A study of Mus musculus with 12 samples.

Results

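The neuregulin and ErbB signalling genes were followed in RNA sequencing of newborn mouse heart cells as 8 genes chosen by symbol, 4 ligands (Nrg1, Hbegf, Areg and Ereg) and 4 receptors (Egfr, Erbb2, Erbb3 and Erbb4), among 52336 genes in the deposited table. The rule used symbols and no measured value, though it was written with earlier results of these data known. Of the 8 genes, 7 passed a filter on low values (a mean normalized read count of at least 10 over the 12 libraries), which 14996 of the 52336 genes passed. Areg did not pass and is described by its reads. Levels are normalized read counts, that is reads divided by a size factor for each library. Fold changes are log2 differences of the normalized count plus 1, which understate the change of genes with few reads.

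ErbB receptors are tyrosine kinases at the cell surface that signal in pairs once a ligand of the epidermal growth factor family is bound. Neuregulin binds ErbB3 and ErbB4, which pair with ErbB2, a receptor that has no ligand of its own, while amphiregulin binds the EGF receptor and both epiregulin and heparin-binding EGF bind the EGF receptor and ErbB4. In the heart, neuregulin comes mainly from endothelial cells and acts on the ErbB4 and ErbB2 of cardiomyocytes, where the pair is needed for trabeculation and drives the division of newborn cardiomyocytes.

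The study asked how an antioxidant given before injury affects the transcripts of heart muscle cells of the newborn mouse with and without injury. There were 4 groups of 3 libraries: N-acetylcysteine (NAC) with myocardial infarction (NAC MI), saline with infarction (saline MI), NAC with sham surgery (NAC sham) and saline with sham surgery (saline sham). All mice were labelled wild type and were 3 days old at collection. NAC, a thiol antioxidant that supplies cysteine, was given at a dose that the labels call high, in saline buffered with HEPES, once a day on days 0 and 1, and control pups had saline. On day 2 the left anterior descending coronary artery was occluded (MI) or a sham procedure was done, so each heart was sampled the day after surgery. Hearts were pooled, their ventricles were digested with enzymes, and a kit for neonatal cardiomyocytes selected the cells. The labels say left ventricle where the series text says whole ventricles. Nothing says whether the libraries of a group came from separate litters, so the spread that a p-value measures is that between libraries and may be technical.

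Recovered depth was 14353842 to 25118341 reads per library. All 12 cardiomyocyte markers were measured, with a mean log2 level of 14.6 to 15.2 in NAC MI, 14.5 to 14.8 in saline MI, 13.5 to 15.2 in NAC sham and 14.1 to 14.6 in saline sham, but markers of other cells were present too, and every list of such markers had some above the filter. In these mixed isolates, fewer cells of a type and less RNA per cell cannot be told apart. NAC sham 2, NAC MI 2 and saline sham 3 stood apart from the rest of their groups, as judged from marker and mitochondrial levels of these same data. NAC sham 2 had the lowest cardiomyocyte level (13.5) with a macrophage level of 9.33 against 6.31 and 5.998 in NAC sham 1 and 3. NAC MI 2 had a macrophage level of 5.64 against 9.14 and 8.86 in NAC MI 1 and 3, with an epicardial level of 10.8 against 8.99 and 9.17. In saline sham 3, mitochondrial transcripts made up 27.7% of the normalized counts, against 7.65% and 13.6% in saline sham 1 and 2. Sample titles carried prefixes of unstated meaning, and none of them stood on both MI and sham libraries, so the effects of surgery and of the prefix cannot be told apart.

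Set side by side per kilobase of annotated exon, Erbb2 had the highest mean level of the 8 genes, 99.99 ± 19.8 normalized counts per kb (SD over 12 libraries). Hbegf followed with 69.8 ± 23.0, then Nrg1 with 24.9 ± 12.2, Erbb3 with 18.4 ± 6.03, Egfr with 17.5 ± 5.15, Erbb4 with 13.2 ± 11.7, Ereg with 6.34 ± 5.34 and Areg with 3.66 ± 5.40. The lowest and highest libraries of every neighbouring pair in this order overlapped. Hbegf lay above Nrg1 in 12 of 12 libraries and Erbb2 above Hbegf in 10, whereas Erbb3 lay above Egfr in only 6 of 12. With the longest annotated transcript as the length, Hbegf (117 per kb) came before Erbb2 (104 per kb), and Egfr came before Erbb3. Erbb2 made up most of the receptor signal per kb in every library, with 61.1 to 63.5% in NAC MI, 65.2 to 71.8% in saline MI, 64.3 to 70.5% in NAC sham and 67.9 to 78.9% in saline sham. Hbegf made up most of the ligand signal per kb in every library, between 52.7% and 83.2%.

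**Figure D1:**
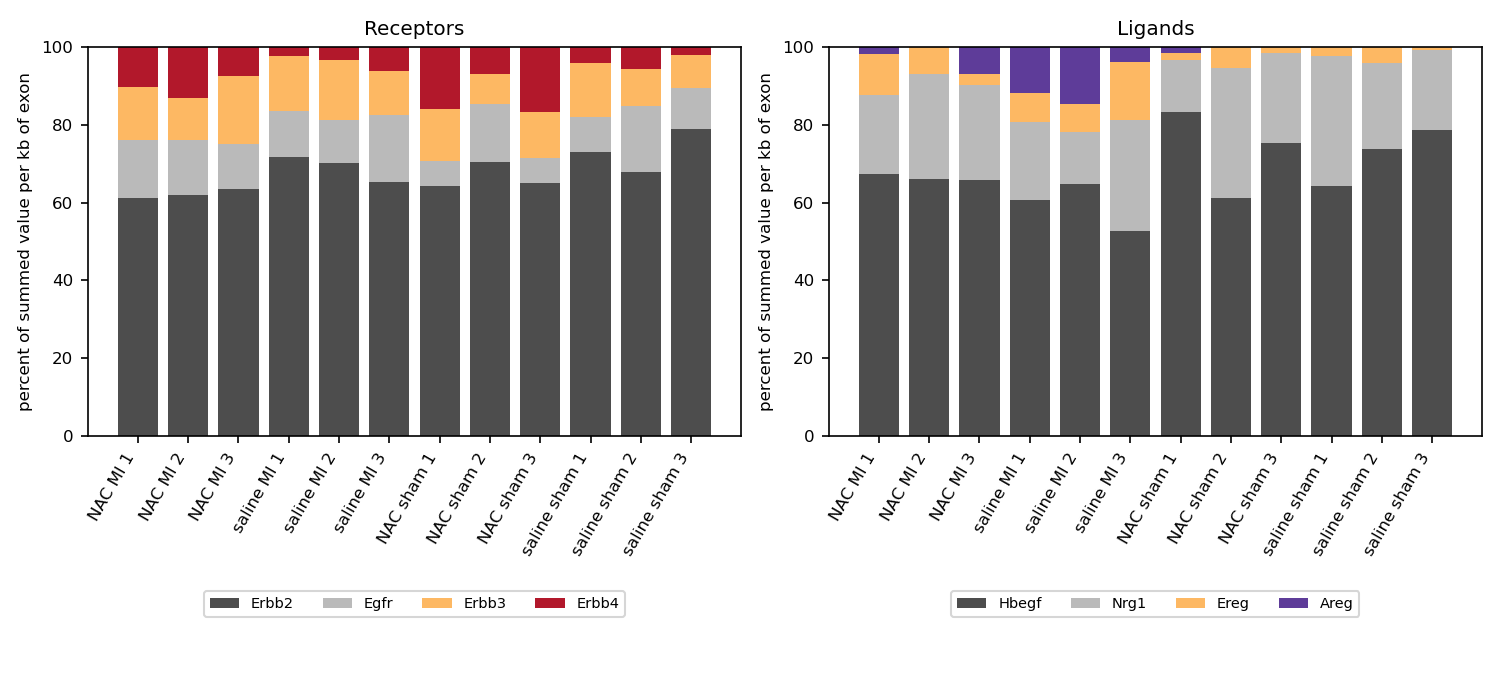
Share of each gene in the summed level per kb of exon, in percent, for the 4 ligands and the 4 receptors, with 1 bar per library. Erbb2 takes the largest part of every receptor bar, and Erbb4 takes 6.83 to 16.6% in the NAC libraries and 2.16 to 6.25% in the saline libraries. These shares depend on the other receptors and were not tested. The Erbb4 counts themselves overlapped, with 101 in NAC sham 2 and 109 in saline MI 3.

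Over the whole set, none of the 7 genes tested passed an adjusted p of 0.05 in limma in any of 7 comparisons. For MI against sham averaged over NAC and saline the call rate over all 14996 genes was 2.74%, and 0 of the 7 genes were called. The rate was 0.127% for MI against sham after NAC and 0.86% for MI against sham after saline, again with 0 of 7. For NAC against saline the rate was 0% averaged over surgeries, 0% after MI and 0% after sham surgery, and for the interaction of NAC and MI it was 0%. With limma calling 0 genes of the whole table averaged over surgeries, 2327 genes (15.5%) lay under an unadjusted p of 0.05, edgeR called 0 and DESeq2 called 432 (2.88%). After MI these counts were 1382 genes unadjusted (9.22%), 0 by edgeR and 10 by DESeq2, and after sham surgery 884 (5.89%), 0 and 47. The largest differences within the set were in Ereg and Areg with MI and in Erbb4 with NAC, and each is given by library. At an unadjusted p under 0.05 the 7 genes counted 2 in MI against sham averaged (20.2% of all genes), 2 after NAC (10%) and 1 after saline (11.4%). In NAC against saline they counted 2 averaged, 2 after MI and 1 after sham surgery, and 0 for the interaction (2.03% of all genes). By edgeR 0 of 7 were called in any comparison. DESeq2 called Ereg in MI against sham averaged, beside 8.12% of all genes. It called Erbb4 in NAC against saline averaged (2.88% of all genes) and after sham surgery (0.313%).

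**Figure D2:**
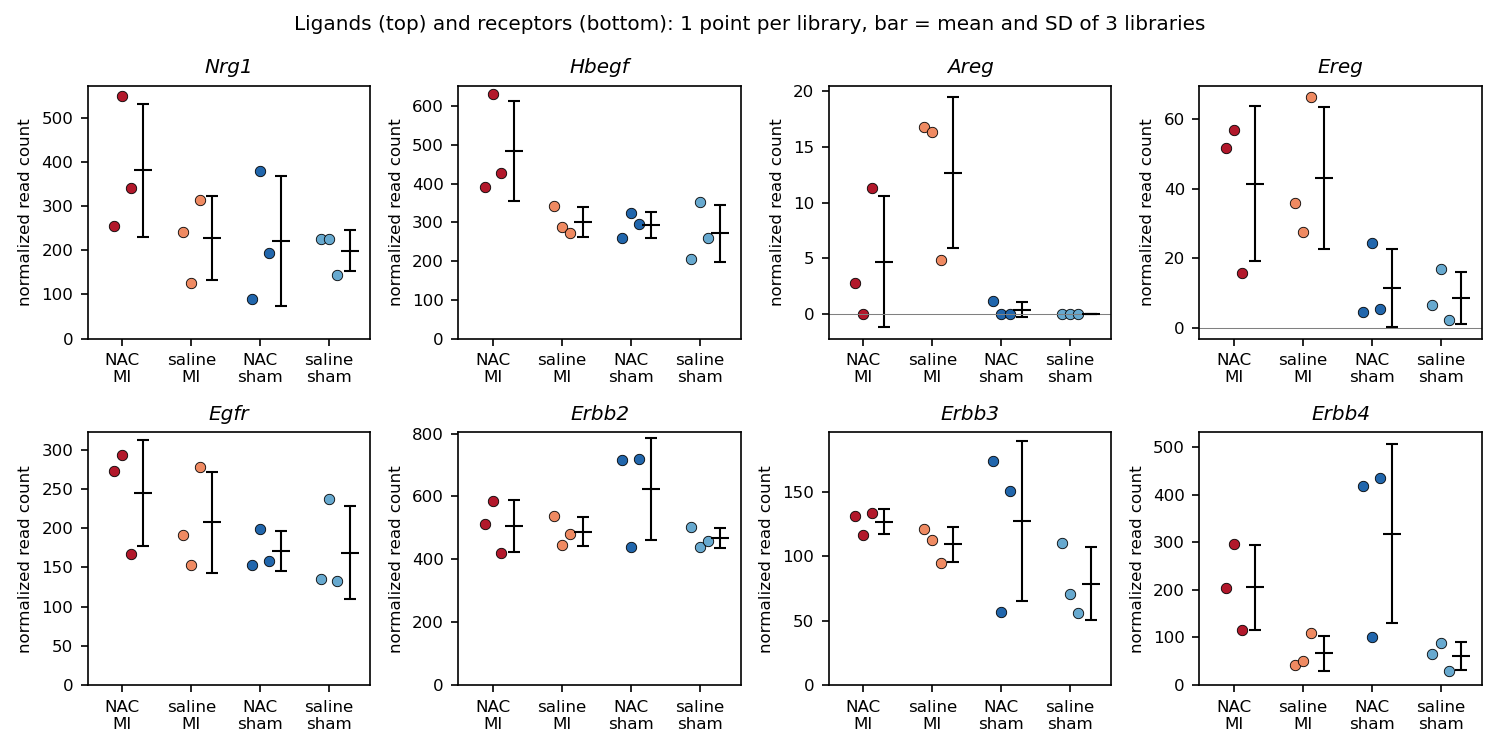
Normalized read count of each of the 8 genes, with 1 point per library and the mean and SD of the 3 libraries of NAC MI, saline MI, NAC sham and saline sham. Ereg averages 41.4 in NAC MI and 43.2 in saline MI, against 11.5 in NAC sham and 8.59 in saline sham, Areg has reads in 5 of 6 MI libraries and 1 of 6 sham libraries, and Erbb4 is higher in NAC than in saline within each kind of surgery.

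Nrg1 encodes neuregulin-1, the main ligand of ErbB3 and ErbB4 in the heart (GRCm38 chr8:31814551-32884029, minus strand, a span of 1069.5 kb). It had 254, 549 and 341 normalized counts in the NAC MI libraries, 242, 126 and 315 in saline MI, 90.1, 380 and 194 in NAC sham, and 227, 226 and 145 in saline sham. The highest library was NAC MI 2 and the lowest NAC sham 1, and the 4 groups overlapped. Means were 382 ± 152 in NAC MI, 228 ± 95.5 in saline MI, 221 ± 147 in NAC sham and 199 ± 47.0 in saline sham (SD, n = 3 libraries each). Averaged over both treatments, the log2 difference of MI against sham was 0.53 (SE 0.34, limma adjusted p = 0.396), and that of NAC against saline averaged over surgeries was 0.36 (SE 0.34, adjusted p = 0.627). MI and sham differed by 0.94 on the log2 scale after NAC (95% interval -0.09 to 1.98) and by 0.12 after saline (-0.92 to 1.16). Leaving out 1 library in turn gave 0.42 to 1.45 after NAC, the lowest without NAC sham 1 and the highest without NAC sham 2. NAC and saline differed by 0.77 after MI (-0.27 to 1.81) and by -0.05 after sham surgery (-1.09 to 0.98), where edgeR gave 0.16. Endothelial markers, the usual source of neuregulin in the heart, had a mean log2 level of 10.9 to 11.99 in NAC MI, 11.8 to 12.03 in saline MI, 11.6 to 12.7 in NAC sham and 12.4 to 12.5 in saline sham. NAC MI 2, the library with the most Nrg1, had the lowest endothelial level, 10.9, while NAC sham 2, next highest for Nrg1, had the highest, 12.7. The part of endothelial cells in the Nrg1 values was not tested. A noncoding gene, Gm26578, overlaps exons of Nrg1 on the opposite strand, and no value of it was used here.

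Hbegf encodes heparin-binding EGF-like growth factor, a ligand that is cut from the cell surface and binds the EGF receptor and ErbB4 (GRCm38 chr18:36504927-36515805, minus strand). It had 391, 630 and 429 normalized counts in NAC MI, 343, 287 and 272 in saline MI, 258, 324 and 296 in NAC sham, and 205, 351 and 259 in saline sham. All 3 NAC MI libraries lay above the other 9 libraries, and the other 3 groups overlapped. The share of all genes with such a separation was not computed. Means were 483 ± 129 in NAC MI, 301 ± 37.6 in saline MI, 293 ± 32.9 in NAC sham and 272 ± 73.9 in saline sham (SD, n = 3 each). MI and sham after NAC differed by a log2 of 0.70 (95% interval 0.17 to 1.22, limma adjusted p = 0.363), while MI and sham after saline differed by 0.17 (-0.35 to 0.69, adjusted p = 0.828). Hbegf was the member whose groups did not overlap in MI against sham after NAC, as were those of 19% of all genes tested. NAC against saline after MI gave a log2 difference of 0.66 (95% interval 0.14 to 1.18, limma adjusted p = 0.529), against 0.13 (-0.39 to 0.66) after sham surgery. After MI the groups again did not overlap, as was the case for 20.3% of all genes. The interaction of NAC and MI, which tests the difference between those effects, was 0.52 for Hbegf (95% interval -0.22 to 1.26, limma adjusted p = 0.9999). NAC MI 2 held the highest value, and without it the log2 difference of NAC against saline after MI was 0.45 (limma adjusted p = 0.844) and that of MI against sham after NAC 0.49 (adjusted p = 0.627).

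Ereg encodes epiregulin, a ligand of the EGF receptor and ErbB4 that is made at sites of inflammation and wounding (GRCm38 chr5:91074622-91093646, plus strand). It had 51.6, 56.8 and 15.8 normalized counts in NAC MI, 35.9, 27.5 and 66.3 in saline MI, 4.68, 24.5 and 5.35 in NAC sham, and 6.52, 16.9 and 2.38 in saline sham. Of the 6 MI libraries only NAC MI 3 lay within the range of the sham libraries, where NAC sham 2 and saline sham 2 were the highest. Means were 41.4 ± 22.3 in NAC MI, 43.2 ± 20.4 in saline MI, 11.5 ± 11.3 in NAC sham and 8.59 ± 7.46 in saline sham (SD, n = 3 each). Averaged over treatments, the log2 difference of MI against sham was 2.18 (SE 0.55, 95% interval 0.99 to 3.37), a 4.53-fold difference of the count plus 1. Its limma adjusted p of 0.0553 missed the threshold of 0.05, and its adjusted p was 0.0656 by edgeR and 0.00653 by DESeq2. Without the 3 libraries that stood apart, which were picked from these same data, the log2 difference was 2.07 (limma adjusted p = 0.0149). Leaving out NAC MI 3, NAC sham 2, saline sham 2 or saline sham 3 in turn also brought it past the threshold. The limma adjusted p were 0.0359, 0.0134, 0.0416 and 0.0474 in that order, and leaving out any other library did not (up to 0.135). NAC MI 3 was the lowest MI library, and NAC sham 2 and saline sham 2 the highest sham libraries, so leaving these out raises the difference by construction. More genes of the whole table were also called without saline sham 3 and without the 3 libraries, with counts given at the end.

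After saline, all 3 MI libraries lay above all 3 sham libraries for Ereg, as was the case in one direction or the other for 18.6% of all genes, and the log2 difference was 2.43 (95% interval 0.75 to 4.11, limma adjusted p = 0.220). After NAC the log2 difference was 1.93 (0.25 to 3.62, adjusted p = 0.445), and the interaction was -0.49 (-2.87 to 1.88, adjusted p = 0.9999). NAC and saline differed by -0.15 after MI (95% interval -1.84 to 1.53) and by 0.34 after sham surgery (-1.34 to 2.02). Reads of Ereg were few, with 114 in NAC MI, 137 in saline MI, 38 in NAC sham and 28 in saline sham over 3 libraries each.

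Marker lists of other cells also differed between MI and sham, in both directions. The mean log2 level of macrophage and monocyte markers was 9.14, 5.64 and 8.86 in NAC MI, 9.35, 8.75 and 9.48 in saline MI, 6.31, 9.33 and 5.998 in NAC sham, and 5.74, 6.04 and 5.32 in saline sham. All 14 were measured and 14 of 14 were higher in MI than in sham averaged over treatments, of which 2 passed the test. After NAC 11 were higher and 3 lower, with 0 passing, and after saline 14 were higher, with 2 passing. The counts for the lists that follow are again averaged over treatments. Of the 9 neutrophil markers measured, 9 were higher in MI and 6 passed, and of 10 epicardial markers 9 were higher and 5 passed. Fibroblast markers were higher in 10 of 10, none of which passed. Mural markers were lower in 7 of 8, of which 2 passed, and the 1 that was higher passed too. Endothelial markers were lower in 12 of 12, and none passed. NAC MI 2 had the highest Ereg of the NAC MI libraries with the lowest macrophage level of the MI libraries, and NAC sham 2 had the highest Ereg of the sham libraries with the highest macrophage level among them. The genes whose log2 levels were most like Ereg over the 12 libraries were those of the matrix proteins fibronectin, Fn1 (r = 0.947), and tenascin-C, Tnc (r = 0.945), and Crybg1 (r = 0.943). The part of other cells in the Ereg result was not tested. An antisense transcript, Gm19610, overlaps the exons of Ereg and had a mean of 2.85 normalized counts. The sources used here do not say whether the counting used strand, so reads of such overlapping partners cannot be told apart.

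Areg encodes amphiregulin, a ligand of the EGF receptor linked to tissue repair, and lies next to Ereg on chromosome 5 (GRCm38 chr5:91139599-91148432, plus strand). It had 3, 0 and 10 reads in NAC MI, 15, 22 and 5 in saline MI, 1, 0 and 0 in NAC sham, and 0, 0 and 0 in saline sham. Reads were thus seen in 5 of 6 MI libraries and in 1 of 6 sham libraries, and the exception among the MI libraries was NAC MI 2. In normalized counts these were 2.82, 0 and 11.3 in NAC MI, 16.8, 16.3 and 4.87 in saline MI, and 1.17 in NAC sham 1, where 3 reads are worth 2.17 to 3.79 normalized counts. Summed over libraries and scaled for depth, the 55 reads in MI against 1 read in sham gave a ratio of 58.1, with an exact 95% counting interval of 10.01 to 2337. After saline there were 42 reads in MI and 0 in sham. With the sham group set at a floor of 3 reads the ratio was 13.8, and the exact 95% counting interval of the ratio began at 10.8. After NAC the 13 reads in MI against 1 in sham gave a ratio of 14.8 (exact 95% counting interval 2.22 to 629). Between the infarcted groups, 13 reads in NAC MI against 42 in saline MI gave a ratio of 0.368 (0.181 to 0.700), but the libraries overlapped and limma with no filter on low values gave a log2 difference of -1.76 (adjusted p = 0.687). Intervals and floors cover counting error only. With no filter on low values, limma gave Areg a log2 difference of MI against sham of 2.54 averaged over treatments (adjusted p = 0.0638 over 30746 genes).

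The promoter of Areg is shown because this gene had nearly all of its reads in the infarcted groups. The stretch is the 250 bases upstream of the RefSeq start on GRCm38.p6, chr5:91139349-91139598, plus strand, with motif matches in capitals.
Areg promoter: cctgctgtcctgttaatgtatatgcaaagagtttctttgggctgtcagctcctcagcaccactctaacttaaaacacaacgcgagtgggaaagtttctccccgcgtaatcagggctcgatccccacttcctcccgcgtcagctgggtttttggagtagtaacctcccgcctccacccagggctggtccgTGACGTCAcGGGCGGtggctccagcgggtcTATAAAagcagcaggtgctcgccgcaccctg
The capitals mark, in order, a cAMP response element (TGACGTCA) that begins 61 bases before the start, an SP1 GC box (GGGCGG) 52 bases before it and a TATA box (TATAAA) 31 bases before it. Over 32851 RefSeq promoters of the same length, searched on both strands, 1.5% held that cAMP response element, 32.7% that GC box and 12.4% that TATA box. The other motifs searched were AP-1 (TGANTCA), the core of the antioxidant response element (TGACNNNGC) and NF-kB, found in 6.7%, 10.2% and 1.4% of promoters, and none matched here. A match is a description of the letters and not a measured binding site.

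Egfr encodes the EGF receptor, which in the heart is carried by fibroblasts and smooth muscle cells as well as by cardiomyocytes (GRCm38 chr11:16752203-16918158, plus strand). It had 273, 293 and 167 normalized counts in NAC MI, 192, 153 and 279 in saline MI, 153, 200 and 159 in NAC sham, and 136, 237 and 133 in saline sham. The 4 groups overlapped, with NAC MI 2 highest and saline sham 3 lowest. Means were 244 ± 67.6 in NAC MI, 208 ± 64.4 in saline MI, 170 ± 25.4 in NAC sham and 169 ± 59.3 in saline sham (SD, n = 3 each). The log2 difference of MI against sham averaged over treatments was 0.40 (95% interval -0.08 to 0.87, limma adjusted p = 0.325), and that of NAC against saline averaged over surgeries was 0.15 (-0.33 to 0.62). Egfr and Ereg, the receptor and one of its ligands, had a correlation of their log2 levels of 0.841 over the 12 libraries. These points share library, depth and cell content, so this r is a description, as are those given for other genes.

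Erbb2 encodes the receptor without a ligand, which in newborn mouse cardiomyocytes is known to limit the response to neuregulin as its level declines after birth (GRCm38 chr11:98412470-98437716, plus strand). It had 511, 586 and 419 normalized counts in NAC MI, 537, 445 and 480 in saline MI, 716, 438 and 718 in NAC sham, and 502, 440 and 458 in saline sham. NAC sham 1 and 3 stood above all other libraries, while NAC sham 2 lay near the low end of all libraries, so the groups overlapped. Means were 506 ± 83.5 in NAC MI, 488 ± 46.6 in saline MI, 624 ± 161 in NAC sham and 467 ± 32.2 in saline sham (SD, n = 3 each). Averaged over treatments, MI and sham differed by a log2 of -0.11 (95% interval -0.44 to 0.22, limma adjusted p = 0.726). Averaged over surgeries, NAC and saline differed by 0.21 (-0.11 to 0.54, adjusted p = 0.502), and after sham surgery by 0.38 (-0.08 to 0.85, adjusted p = 0.770). Mien1 overlaps the exons of Erbb2 on the opposite strand, with a mean of 31.9 normalized counts over the 12 libraries, where Erbb2 had 521.

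Erbb3 encodes a receptor with little kinase activity of its own that binds neuregulin and signals through ErbB2 (GRCm38 chr10:128567523-128589652, minus strand). It had 131, 116 and 133 normalized counts in NAC MI, 121, 113 and 94.5 in saline MI, 174, 56.9 and 151 in NAC sham, and 110, 70.5 and 55.9 in saline sham. The groups overlapped, and the spread was widest in NAC sham, where NAC sham 2 was far below the others. Means were 127 ± 9.40 in NAC MI, 110 ± 13.6 in saline MI, 127 ± 62.0 in NAC sham and 78.9 ± 28.1 in saline sham (SD, n = 3 each). The log2 difference of MI against sham averaged over treatments was 0.33 (95% interval -0.26 to 0.92, limma adjusted p = 0.524), and that of NAC against saline averaged over surgeries was 0.40 (-0.19 to 0.99, adjusted p = 0.483). Erbb3 is also the ErbB receptor of Schwann cells, for which 6 markers passed the filter on low values. Their mean log2 level was 6.14 to 6.50 in NAC MI, 5.86 to 6.31 in saline MI, 5.45 to 6.36 in NAC sham and 5.45 to 5.92 in saline sham. The genes most like Erbb3 were Bend4 (r = 0.911), the slow cardiac myosin gene Myh7 (r = 0.908) and Sorbs2 (r = 0.902).

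Erbb4 encodes the neuregulin receptor of cardiomyocytes, which both binds the ligand and has an active kinase (GRCm38 chr1:68032186-69108059, minus strand, a span of 1075.9 kb). It had 204, 296 and 116 normalized counts in NAC MI, 41.5, 50.5 and 109 in saline MI, 419, 101 and 436 in NAC sham, and 66.0, 88.3 and 29.8 in saline sham. All 3 NAC MI libraries lay above all 3 saline MI libraries, and all 3 NAC sham libraries above all 3 saline sham libraries, although NAC MI 3 and NAC sham 2 came close to the highest saline values. Means were 205 ± 89.6 in NAC MI, 67.1 ± 36.7 in saline MI, 318 ± 189 in NAC sham and 61.3 ± 29.6 in saline sham (SD, n = 3 each). Averaged over surgeries, the log2 difference of NAC against saline was 1.92 (SE 0.42, 95% interval 1.02 to 2.83), a 3.80-fold difference of the count plus 1. Its limma p was 0.000514 unadjusted and 0.172 after adjustment, so it did not pass. Its adjusted p was 0.128 by edgeR and 0.000406 by DESeq2. Over both surgeries, the 6 NAC and 6 saline libraries overlapped through saline MI 3 (109) and NAC sham 2 (101).

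After MI the log2 difference of NAC against saline for Erbb4 was 1.63 (95% interval 0.34 to 2.91, limma adjusted p = 0.529), and 2 of the 7 genes, Erbb4 and Hbegf, had groups that did not overlap, as did 20.3% of all genes. After sham surgery it was 2.22 (0.94 to 3.50, adjusted p = 0.770), and Erbb4 alone of the 7 had groups that did not overlap, as did 9.86% of all genes. The interaction was -0.59 (95% interval -2.41 to 1.22, limma adjusted p = 0.9999). MI and sham differed by a log2 of -0.46 after NAC (-1.75 to 0.82) and 0.13 after saline (-1.15 to 1.41).

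Within the title prefixes that held both treatments, NAC libraries were above saline libraries for Erbb4 each time. The share of all genes with such an order was not computed. Under R235, NAC MI 1 and 2 had 204 and 296 normalized counts and saline MI 3 had 109, and under R230, NAC MI 3 had 116 and saline MI 1 and 2 had 41.5 and 50.5. Under R207 the gap was small, with 101 in NAC sham 2 and 66.0 and 88.3 in saline sham 1 and 2. NAC sham 1 and 3, with 419 and 436, carried no such prefix, and saline sham 3, with 29.8, stood alone under R219. For those libraries treatment and prefix cannot be told apart. With the prefix as a block, the log2 difference after MI was 1.24 (limma adjusted p = 0.392). Without the 3 libraries that stood apart, the difference of NAC against saline averaged over surgeries was 1.89 (limma adjusted p = 0.00733). Without NAC sham 2 alone it was 2.27 (limma adjusted p = 0.0112). The 3 libraries were picked from these same data. NAC sham 2 was the lowest NAC library for Erbb4, so leaving it out raises the averaged difference by construction. More genes of the whole table were also called without NAC sham 2 and without the 3 libraries, with counts given at the end. After sham surgery the difference without NAC sham 2 was 2.91 (limma adjusted p = 0.0399), again raised by construction. The range of calls over all genes after sham surgery, leaving out 1 library, is also given at the end. NAC sham 2 was the only NAC sham library that shared a prefix with saline sham libraries. Without it, treatment and prefix cannot be told apart after sham surgery. Leaving out any other library brought neither the averaged difference nor that after sham surgery past the threshold.

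Cardiomyocyte content differed between libraries beside Erbb4. The mean log2 level of cardiomyocyte markers was 14.8, 15.2 and 14.6 in NAC MI, 14.7, 14.8 and 14.5 in saline MI, 15.2, 13.5 and 15.2 in NAC sham, and 14.5, 14.1 and 14.6 in saline sham. NAC sham 2, lowest for these markers, was also the lowest NAC library for Erbb4, and NAC MI 3 was lowest of its group for both. The saline groups ran the other way. Saline sham 2 (14.1) and saline MI 3 (14.5) were lowest of their groups for these markers and highest for Erbb4 (88.3 and 109). Averaged over surgeries, 6 of the 12 markers were higher with NAC and 6 lower, and none passed. Globin transcripts took 1.42 to 2.78% of the normalized counts in NAC MI, 4.24 to 7.05% in saline MI, 1.07 to 2.68% in NAC sham and 3.71 to 6.54% in saline sham. The part of cell content and of red cell RNA in the Erbb4 values was not tested.

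Long genes lay higher with NAC as well, which is described with no test. Of 136 tested genes with a span of at least 500 kb, a limit chosen after values were seen, 106 were higher with NAC averaged over surgeries, with a median log2 difference of 0.29, against 7132 of 14996 genes and a median of -0.02 over the whole table. Their median was 0.28 after MI and 0.29 after sham surgery. Erbb4 (1075.9 kb) and Nrg1 (1069.5 kb) are both among these long genes, and their log2 differences were 1.92 and 0.36. The part of length in the Erbb4 difference was not tested. The genes most like Erbb4 over the 12 libraries were Ank2, for the membrane adaptor ankyrin-B (r = 0.988), Insr, for the insulin receptor (r = 0.983), and Phtf2 (r = 0.981).

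**Figure D3:**
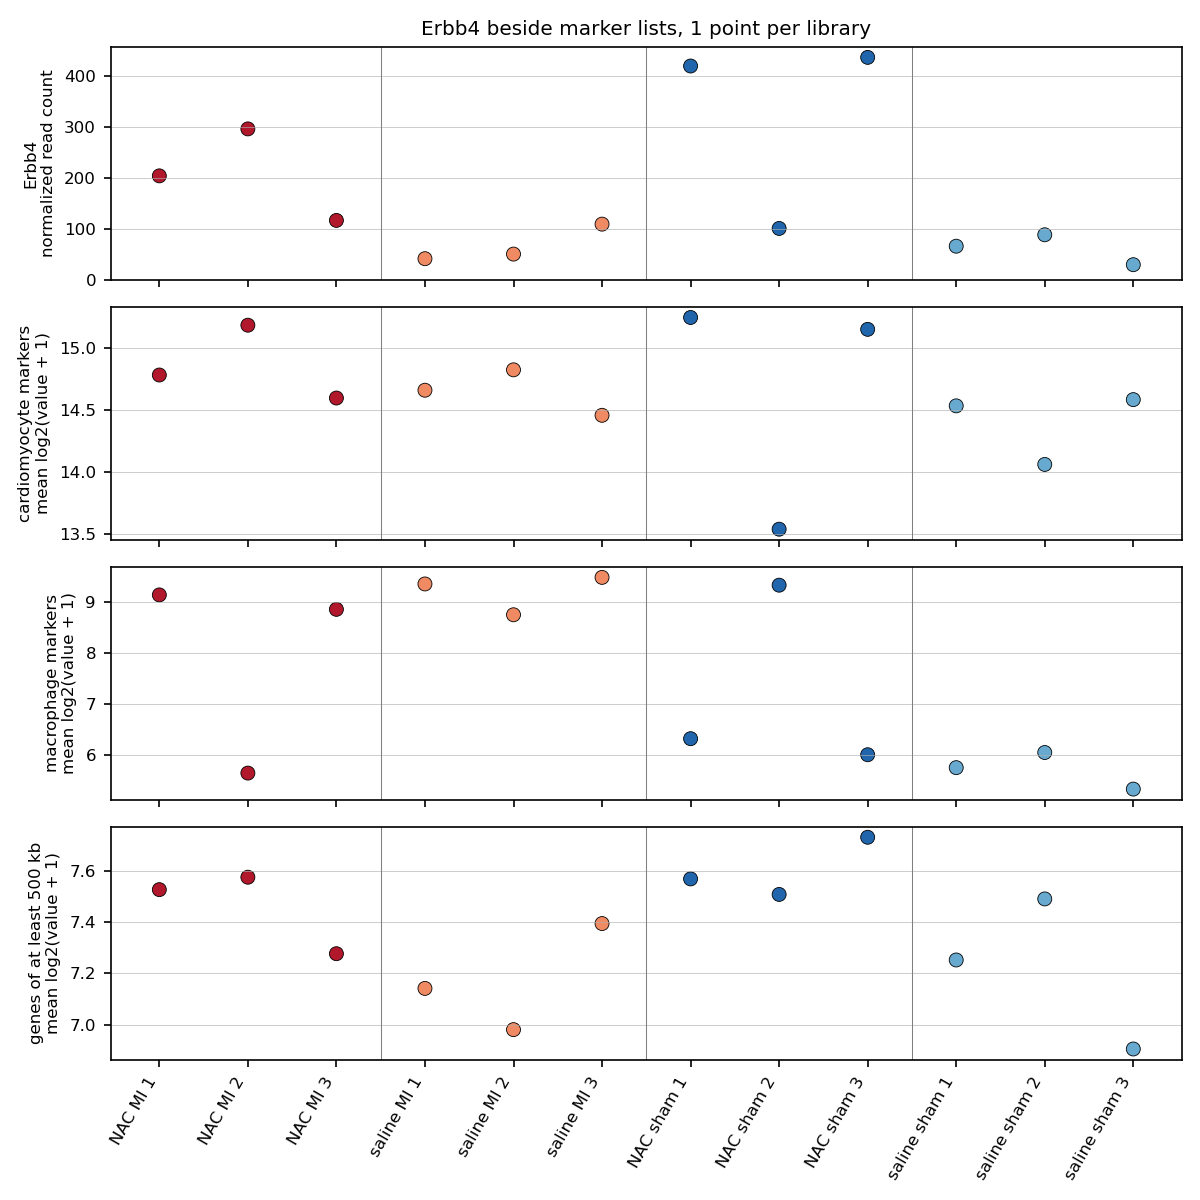
Erbb4 normalized read count in each of the 12 libraries (top), above the mean log2(value + 1) of cardiomyocyte markers, of macrophage markers and of genes with a span of at least 500 kb. NAC sham 2 has the lowest cardiomyocyte level (13.5) and, with 101, the lowest Erbb4 count of the NAC libraries. Saline sham 2 and saline MI 3 have the lowest cardiomyocyte level of their groups (14.1 and 14.5) and the highest Erbb4 count (88.3 and 109).

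The promoter of Erbb4 is shown because this receptor had the largest difference between NAC and saline within the set. It is the 250 bases upstream of the RefSeq start on GRCm38.p6, chr1:69108060-69108309, printed 5′ to 3′ on the minus strand.
Erbb4 promoter: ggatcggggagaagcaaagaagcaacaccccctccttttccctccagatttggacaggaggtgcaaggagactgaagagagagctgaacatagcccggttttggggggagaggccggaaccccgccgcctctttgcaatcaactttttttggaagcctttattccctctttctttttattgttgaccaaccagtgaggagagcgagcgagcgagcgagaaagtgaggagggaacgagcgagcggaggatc
None of the 6 motifs searched in the Areg promoter, the antioxidant response element core among them, was found in these 250 bases, which says only that those letters are not in this window. Its GC content was 54.0%, against 53.2% over all promoters, so no letter is in capitals.

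Correlations between members over the 12 libraries are given as a description. Among 3 of the receptors, log2 levels of Erbb4 and Erbb2 had r = 0.729, those of Erbb2 and Erbb3 r = 0.658 and those of Erbb3 and Erbb4 r = 0.611. Egfr had r = -0.07 with Erbb2, -0.04 with Erbb3 and 0.302 with Erbb4, and its higher values were with the ligands, 0.841 with Ereg, 0.658 with Nrg1 and 0.653 with Hbegf. Nrg1 and Hbegf had r = 0.665. The genes most like Nrg1 were Rnd3 (r = 0.897), Tuft1 (0.884) and Scd1 (0.859), and those most like Hbegf were Stk26 (0.924), Slc39a8 (0.912) and Sec24d (0.912). For Egfr they were Adgrg2 (0.916), Il1rap (0.889) and Ano3 (0.885), and for Erbb2 they were Fbxo10 (0.955), Slc47a1 (0.948) and Lgr6 (0.942).

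**Figure D4:**
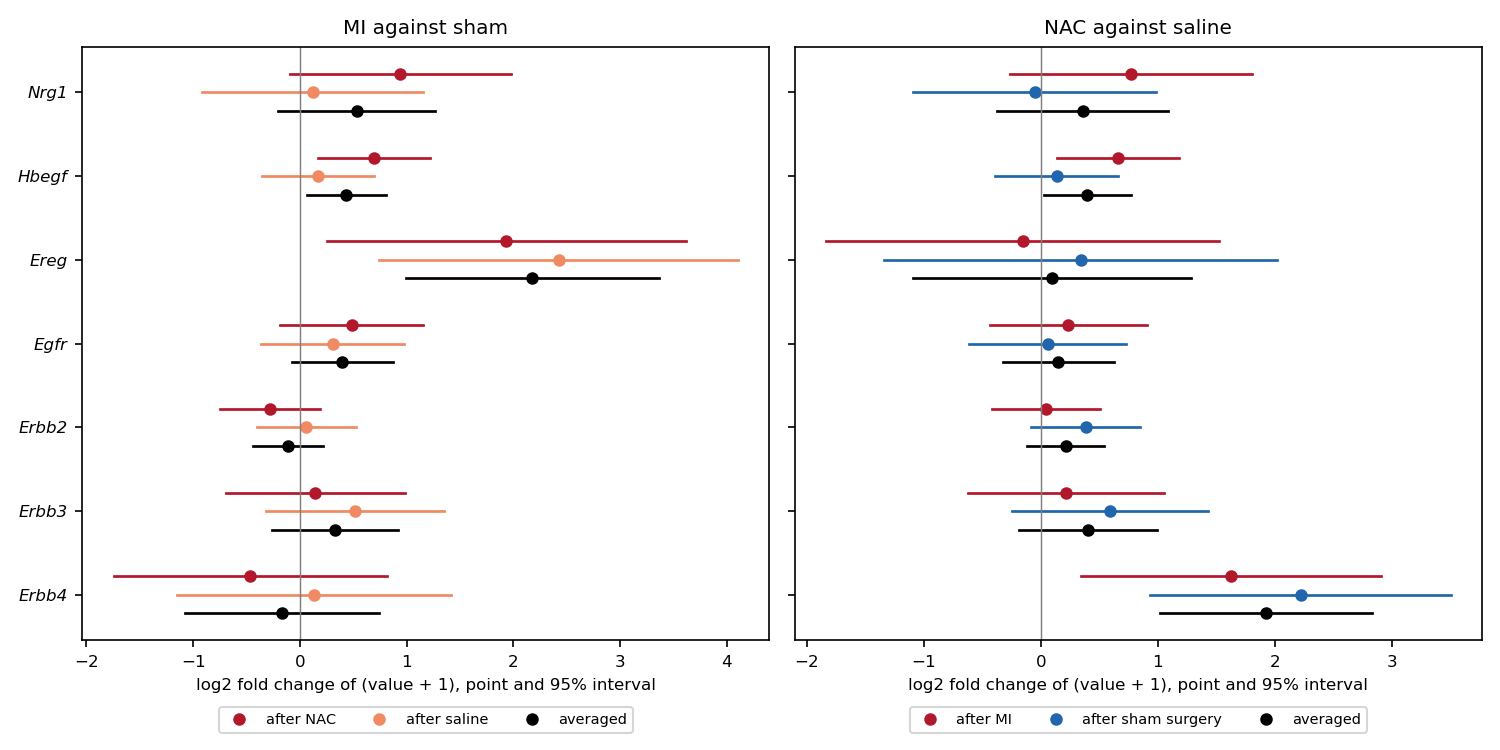
Log2 fold change of the normalized count plus 1 with its 95% interval for the 7 genes tested, for MI against sham and for NAC against saline, averaged and within each arm. The intervals of Ereg with MI (0.99 to 3.37, averaged) and of Erbb4 with NAC (1.02 to 2.83, averaged) lie farthest from 0.

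Read as a set, the 7 genes had a median log2 difference of 0.40 for MI against sham averaged over treatments, beside -0.003 for all genes, with 5 higher and 2 lower. For NAC against saline averaged over surgeries the median was 0.36, beside -0.02 for all genes, with 7 higher and 0 lower. Both averaged comparisons had 0 of 7 genes whose libraries did not overlap, as against 2.21% of all genes for MI and 0.84% for NAC. The comparisons after MI and after sham share libraries with the averaged ones, so their directions are not independent.

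Beyond these genes, 85 of 89 listed genes of the same pathway were tested, in 5 lists. These were other ErbB ligands, the proteases that release ligands together with their partner proteins, and receptor inhibitors and turnover. The remaining lists were adaptors and signal relays, and feedback and response genes of the ERK kinases. In MI against sham averaged over treatments 2 of the 85 rose and 0 fell, beside 2.74% of all genes called in either direction. The same comparison had 2 of 85 called by edgeR, 7 by DESeq2 beside 8.12% of all genes, and 27 under an unadjusted p of 0.05 beside 20.2%. In each of the other 6 comparisons 0 of the 85 passed in limma or edgeR. DESeq2 called Ier3 in MI against sham after saline (3.09% of all genes) and Map2k2 in NAC against saline averaged (2.88%). At an unadjusted p under 0.05 these 6 comparisons counted 8 genes for MI against sham after NAC (10% of all genes) and 11 after saline (11.4%), 18 for NAC against saline averaged (15.5%), 6 after MI (9.22%) and 6 after sham surgery (5.89%), and 0 for the interaction (2.03%). In MI against sham averaged over treatments, 34 were higher and 51 lower, and in NAC against saline averaged over surgeries 41 were higher and 44 lower.

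Ier3, an early response gene induced by ERK signalling, had 958, 810 and 713 normalized counts in NAC MI, 1105, 729 and 787 in saline MI, 337, 664 and 371 in NAC sham, and 325, 477 and 519 in saline sham. All 6 MI libraries lay above all 6 sham libraries, as was the case for 1.45% of all genes. Its log2 difference of MI against sham averaged over treatments was 0.95 (SE 0.19, limma adjusted p = 0.0221). Leaving out NAC MI 1, saline MI 1, NAC sham 1, NAC sham 3 or saline sham 1 in turn ended that call, with adjusted p between 0.0502 and 0.0798 and a log2 difference between 0.85 and 0.89.

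Adam12 encodes a metalloprotease known to release HB-EGF, among other ligands, from the cell surface. It had 708, 664 and 509 normalized counts in NAC MI, 607, 440 and 557 in saline MI, 318, 434 and 335 in NAC sham, and 337, 444 and 221 in saline sham. Of the MI libraries saline MI 2 fell within the sham range, just below saline sham 2. The log2 difference of MI against sham averaged over treatments was 0.76 (SE 0.18, limma adjusted p = 0.0441). Leaving out any of 8 libraries ended the call (NAC MI 1 and 2, saline MI 1, 2 and 3, NAC sham 1 and 3, and saline sham 1), with adjusted p up to 0.137, and so did testing with no filter on low values (adjusted p = 0.0565). Adam12 is also made by fibroblast-like cells, whose markers had a mean log2 level of 12.8 to 13.1 in NAC MI, 12.6 to 13.3 in saline MI, 12.1 to 12.6 in NAC sham and 12.01 to 12.8 in saline sham. The part of those cells in the Adam12 result was not tested.

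The other ligands had no call. Of 5 measured, 2 were higher and 3 lower in MI against sham averaged over treatments, and 4 were higher and 1 lower in NAC against saline averaged over surgeries, with medians of -0.38 and 0.74. Tgfa, for the EGF receptor ligand TGF-alpha, had a mean of 154 ± 50.4 in NAC MI, 103 ± 6.11 in saline MI, 108 ± 16.6 in NAC sham and 74.6 ± 14.1 in saline sham (SD, n = 3 each), with a log2 difference of 0.47 for MI against sham (limma adjusted p = 0.213) and 0.54 for NAC against saline (adjusted p = 0.258). Egf, the namesake ligand of the family, had log2 differences of -0.95 (limma adjusted p = 0.248) and 0.85 (adjusted p = 0.365) in those comparisons.

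Among the 38 adaptors and signal relays, 14 were higher and 24 lower in MI against sham averaged over treatments. None passed in limma or edgeR, and DESeq2 called Braf, Nck2, Pik3ca, Sos2 and Src. Pik3ca, the catalytic subunit of PI3 kinase, had the smallest limma p of the list, with a log2 difference of -0.49 (SE 0.13, limma adjusted p = 0.0570), followed by the adaptor gene Nck2 at -0.41 (SE 0.12, adjusted p = 0.0853). Of 15 receptor inhibitors and turnover genes measured, 6 were higher and 9 lower. The smallest p-values among them were those of Socs4, an adaptor that targets the EGF receptor for breakdown, at -0.56 (limma adjusted p = 0.183), and the phosphatase gene Ptpn1 at 0.32 (adjusted p = 0.200).

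For NAC against saline averaged over surgeries, the smallest adjusted p in the pathway was that of Map2k2, the kinase MEK2 that activates ERK, at a log2 difference of -0.48 (SE 0.13, limma adjusted p = 0.189). Hras, a GTPase upstream of it, had -0.50 (adjusted p = 0.226). Among the proteases Adam15 had -0.68 (limma adjusted p = 0.209) and Adam9 0.54 (adjusted p = 0.254). Lrig2, of a family of ErbB regulators, had 0.46 (limma adjusted p = 0.280), and Etv1 and Egr1, transcription factors downstream of ERK, had 0.45 (adjusted p = 0.247) and -1.43 (adjusted p = 0.291). After MI the smallest adjusted p among the 85 was 0.529, after sham surgery 0.770 and for the interaction 0.9999.

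**Figure D5:**
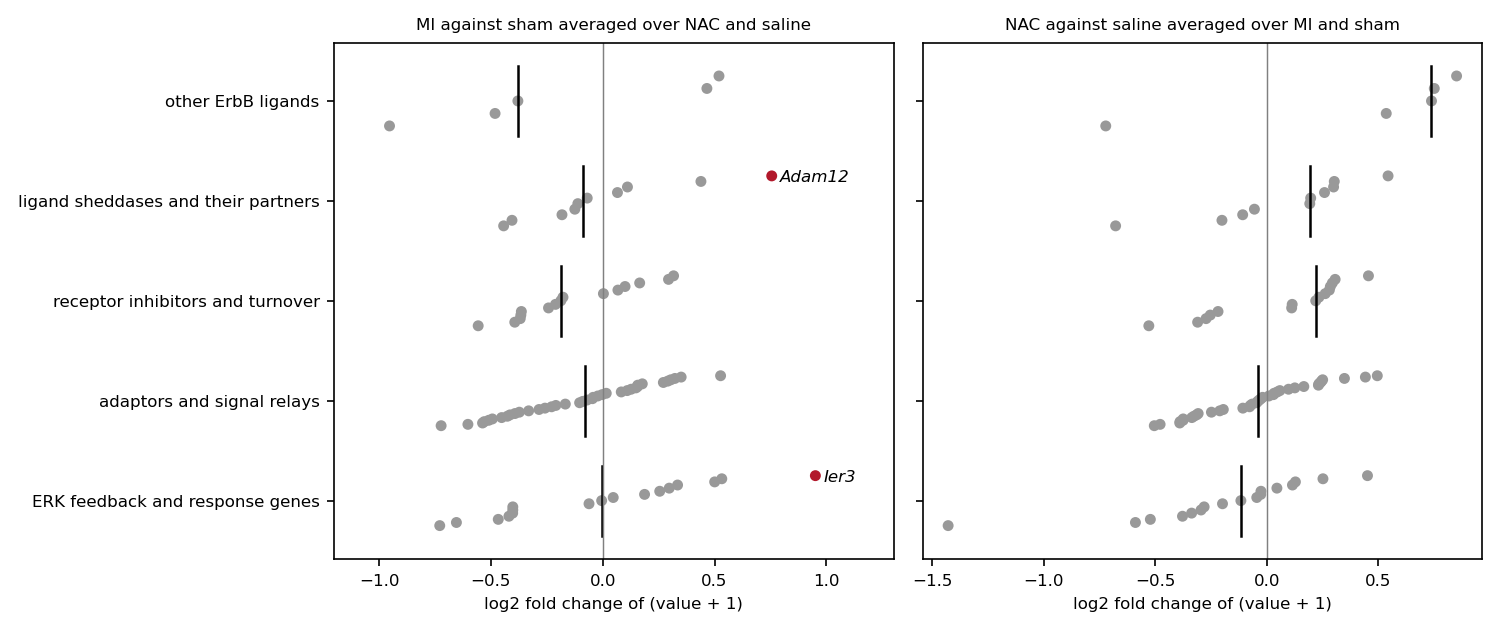
Log2 fold change of each measured gene of the 5 pathway lists, with 1 point per gene and a black line at the list's median, for MI against sham and NAC against saline, both averaged. Red points pass an adjusted p of 0.05: Adam12 (0.76) and Ier3 (0.95) with MI, and none with NAC.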

How the data were processed

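RNA of 12 libraries was sequenced after poly-A enrichment, per the labels' protocols. The authors deposited a normalized signal per gene, that is read counts divided by a size factor for each library. Per the submitters' processing notes, the tools were STAR 2.7.10a and DESeq2 1.44.0, on mm10. How genes were counted (counter, annotation, strand) is not given in the sources used here. The deposited signal times its factor came within 0.01 of a whole number for 100% of values, so whole reads were recovered, and the factors equalled recomputed median-of-ratios factors in 12 of 12 libraries. Gene symbols and positions were matched by identifier to the GENCODE M21 annotation of GRCm38, for 52027 of 52336 genes.

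On log2(value + 1), limma 3.58.1 (trended variance, R 4.3.3) was fitted with 4 group means over 12 libraries, which left 8 residual degrees of freedom. All p-values are two-sided, with Benjamini-Hochberg adjustment over the 14996 genes whose mean was at least 10. A gene was called at an adjusted p under 0.05. The recovered depth of 14353842 to 25118341 reads per library sets the precision. Exact counting intervals were computed at 95%, and a floor of 3 reads was used over a group at 0. Reads carried no stated molecular identifiers and so need not be independent molecules. With 3 against 3 libraries, the smallest p of an exact permutation test is 0.1. The alternatives were edgeR 4.0.16 and DESeq2 1.42.0 on the recovered reads, TMM factors, other pseudocounts, no filter, library quality weights, fewer libraries and the title prefix as a block. The functions were tested on simulated data.

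The named genes were all 8 members, every pathway gene that passed, the smallest p-values of a list where none passed (a part of these is printed), and the 3 genes with the highest Pearson correlation to each member. The members and lists were chosen with earlier results of these data known. Marker levels are the mean of log2(value + 1) over a list. Promoters came from RefSeq (GRCm38.p6), with an entry kept for 4 of 8 members. Member entries on chromosome 18, where Hbegf lies, were left out. Motifs were searched on both strands. Lengths are unions of annotated exons.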

Additional observations from a re-analysis of the deposited data

How the results depend on the processing

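Of 847 alternative values of the members' log2 differences, 772 kept their direction and side of the threshold, 21 passed it anew, 54 changed sign and 0 lost a call, since none passed at first. No paired analysis was possible because the labels give no replicate numbers that pair the groups. The title prefix served as a block for NAC against saline after MI. Ereg in MI against sham averaged kept its direction under 20 of 20 alternatives (log2 1.72 to 2.53, adjusted p 0.000359 to 0.135) and passed in 8, and Erbb4 in NAC against saline averaged did so under 20 of 20 (1.70 to 2.30, adjusted p 0.000399 to 0.452) and passed in 4. The cause of the changes below was not tested. Depth limits Areg, which had few or no reads in most libraries, and the spread between 3 libraries per group limits every test.

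The number of genes called in MI against sham averaged (411) was 1218 with DESeq2, 4187 with quality weights and 2183 without 3 libraries, and 133 to 1563 leaving out 1 library (most without saline sham 3). After NAC (19) it was 241 with DESeq2, 43 with a pseudocount of 5, 1 with only the libraries compared, 806 with weights and 575 without 3 libraries, and 8 to 67 leaving out 1. After saline (129) it was 464, 507 with only the libraries compared, 2915 with weights and 1807 without 3 libraries, and 15 to 105 leaving out 1. For NAC against saline averaged (0) it was 432 with DESeq2, 2021 with weights and 328 without 3 libraries, and 0 to 250 leaving out 1 (most without NAC sham 2). After MI (0) it was 10 with DESeq2 and 685 with weights, and 0 to 4 leaving out 1. After sham (0) it was 47 with DESeq2, 421 with weights and 418 without 3 libraries, and 0 to 80 leaving out 1. For the interaction (0) it was 1 with DESeq2 and 6 without 3 libraries, and 0 to 4 leaving out 1.

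Members called (0) became 3 with weights in MI against sham averaged (Ereg, Hbegf and Egfr) and 1 (Ereg) with DESeq2, with a pseudocount of 5 and without 3 libraries. They became 1 with weights in MI against sham after NAC and after saline (Ereg both times), and 1 (Erbb4) in NAC against saline averaged and after sham with DESeq2, weights and without 3 libraries, and after MI with weights. Over all genes, weights called 27.9% in MI against sham averaged, 5.37% after NAC and 19.4% after saline. For NAC against saline, weights called 13.5% averaged, 4.57% after MI and 2.81% after sham. DESeq2 called 8.12% in MI against sham averaged. In NAC against saline, DESeq2 called 2.88% averaged and 0.313% after sham. Leaving out 1 library gave 0 to 1 members called in both averaged comparisons and in NAC against saline after sham. Per kb of the longest transcript, Hbegf averaged 117 and Nrg1 47.6.

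Sign changes were these, as log2 differences. With weights: Erbb3 -0.24 in MI after NAC, Erbb4 -0.41 in MI after saline, Nrg1 -0.10 and Ereg -0.051 in NAC averaged, Ereg 0.26 and Erbb2 -0.012 in NAC after MI, Ereg -0.36 in NAC after sham and 0.63 in the interaction. Without 3 libraries: Erbb3 -0.29 in MI after NAC, Erbb4 -0.31 and Nrg1 -0.093 in MI after saline, Nrg1 -0.15, Ereg -0.71 and Egfr -0.058 in NAC averaged, Erbb2 -0.070 in NAC after MI, Ereg -0.95 and Egfr -0.20 in NAC after sham, and Ereg 0.48 in the interaction. With the prefix block, Erbb2 -0.016 and Egfr -0.0062 in NAC after MI. For Nrg1 in NAC after sham, 0.16 with edgeR and 0.15 with DESeq2. Leaving out 1 library gave Erbb4 -0.51 to 0.014 in MI averaged, Erbb3 -0.35 to 0.45 in MI after NAC, and in MI after saline Erbb2 -0.011 to 0.12, Nrg1 -0.16 to 0.50, Erbb4 -0.31 to 0.46 and Hbegf -0.013 to 0.37. It gave Ereg -0.26 to 0.40 in NAC averaged, Erbb2 -0.070 to 0.17 and Ereg -0.47 to 0.42 in NAC after MI, and in NAC after sham Nrg1 -0.56 to 0.47, Ereg -0.36 to 0.95, Egfr -0.083 to 0.33 and Hbegf -0.050 to 0.34. In the interaction it gave Ereg -1.10 to 0.20 and Egfr -0.095 to 0.43.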
